A study of Arabidopsis thaliana with 8 samples.

Results

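Clade A protein phosphatases 2C are a family of 9 Arabidopsis thaliana genes, and all 9 were present among the 27826 loci of the deposited table. The members were taken by locus code: ABI1 (AT4G26080), ABI2 (AT5G57050), HAB1 (AT1G72770), HAB2 (AT1G17550), AHG1 (AT5G51760), AHG3 (AT3G11410, also called PP2CA), HAI1 (AT5G59220), HAI2 (AT1G07430) and HAI3 (AT2G29380). No filter on low values was applied, so every member entered every test.

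These enzymes are the brake of the core signalling pathway of abscisic acid (ABA), the hormone of drought responses and seed dormancy. Without ABA they dephosphorylate and silence SnRK2 protein kinases; with ABA, soluble receptors of the PYR/PYL family bind the phosphatases and release the kinases, which phosphorylate bZIP transcription factors and guard cell ion channels. In leaves, most clade A genes are themselves induced by ABA, which forms a feedback loop. The clade has a branch of 4 genes around ABI1 (ABI1, ABI2, HAB1 and HAB2) and a branch of 5 around AHG3 (AHG1, AHG3, HAI1, HAI2 and HAI3).

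Total RNA from shoots was hybridised to 8 Affymetrix arrays, 2 for each of 4 groups. Submerged adult shoots came from plants 3 weeks old held under water in darkness for 24 h, and submerged juvenile shoots from plants 2 weeks old treated in that way. Dark control shoots, adult and juvenile, came from plants of those ages kept for 24 h in tanks that held no water. All groups were thus in darkness, with treatment starting as the light period ended, and no group in light was part of the comparison. The titles of the submerged samples carry only the word dark and those of the controls only a mark for control, whereas the source, description and treatment fields all state submergence for the first, and the description and treatment fields state darkness for the second. The groups follow those fields, and every submerged minus dark control change rests on them. The accession, the genotype and the number of plants behind a sample are not given in the sources used here, so p-values measure the spread between these samples, which may be technical.

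Values are given on the log2 scale of the deposited table, where a difference of 1 is a 2-fold change. A gene's values can be compared between groups. Levels of different genes cannot be ranked, since each locus is read by its own probes. Changes were tested with limma across all loci, and an adjusted p under 0.05 is what makes a gene called, raised ("rose") or lowered ("fell"). The 2 arrays of a group had a correlation across genes between 0.990 and 0.995. Markers of leaf mesophyll (RBCS1A, CAB1, CAB3 and CA1) averaged 10.55 to 10.61 on submerged adult arrays and 11.02 to 11.08 on dark adult arrays. They averaged 10.67 to 10.69 on submerged juvenile arrays and 11.17 to 11.25 on dark juvenile arrays. Markers of root hairs averaged between 3.05 and 3.36 over all arrays, below the lower quartile of every array (3.43 to 3.56), and seed markers averaged between 3.52 and 3.90. Of the 4 root hair markers 1 fell at each age, beside 18.9% of all loci in adult and 18.8% in juvenile shoots. It was PRP3 (-0.69 in adult and -0.59 in juvenile shoots), which had 3.91 to 4.22 on dark arrays.

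Under water, 7 of the 9 phosphatase genes fell in adult shoots and the same 7 fell in juvenile shoots, and 0 rose at either age. AHG3 fell most, by 4.31 at both ages, which left it 19.8-fold below dark controls. Changes lay between -3.18 and -2.66 for ABI2 and HAI1, between -1.44 and -1.30 for HAB1 and HAB2, between -1.15 and -0.93 for HAI2 and between -0.78 and -0.49 for ABI1. AHG1 and HAI3 were not called. As a background, 18.9% of all loci fell in adult shoots and 18.8% in juvenile shoots, and 14.8% fell at both ages. The same 7 genes had both submerged arrays below both controls, which was so for 35.6% of all loci in adult shoots and 37.7% in juvenile shoots. The median change of the 9 members was -1.31 in adult shoots and -1.30 in juvenile shoots, beside medians over all loci of -0.02 and -0.05.

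**Figure D1:**
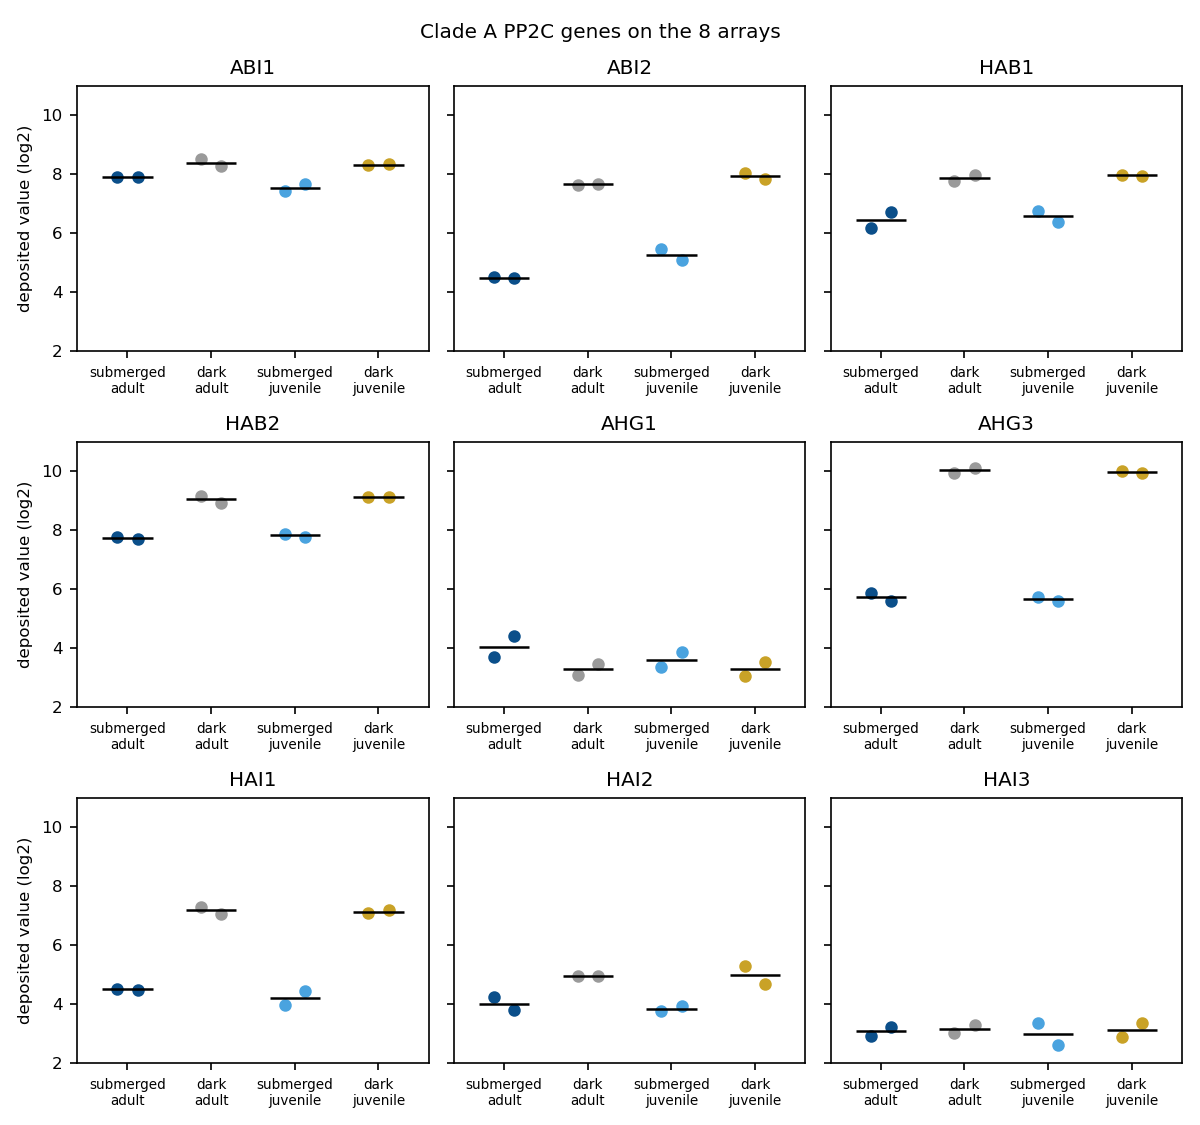
Deposited log2 value (vertical axis) of each clade A PP2C gene on the 8 arrays, with 1 panel per gene, 1 point per array, and a line at the mean of the 2 arrays of a group. For 7 genes both submerged arrays lie below both dark control arrays at each age, with the widest distance for AHG3, while HAI3 stays between 2.63 and 3.38 on all arrays.

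ABI1 is named for a dominant mutant that is insensitive to ABA. It had values of 7.91 and 7.90 in submerged adult shoots, against 8.52 and 8.28 in dark adult shoots. In juvenile plants it had 7.44 and 7.67 in submerged shoots, against 8.31 and 8.35 in dark shoots. Both submerged arrays were below both controls at each age, with no overlap. Its fall was the smallest of the 7: the change was -0.49 in adult shoots (standard error 0.14, adjusted p 0.0293) and -0.78 in juvenile shoots (standard error 0.14, adjusted p 0.00418). The adult call was lost (adjusted p 0.0593) when only the 4 adult arrays were fitted. It was also lost without either submerged adult array (0.0913 and 0.0945), without dark adult replicate 1 (a change of -0.37, 0.156) and without either dark juvenile array (0.0552 each). Over its 15 alternatives the adult adjusted p ran between 0.0113 and 0.156, and the juvenile call held in all 15.

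ABI2, the closest relative of ABI1 and likewise named for an ABA-insensitive mutant, fell far more. It had 4.51 and 4.47 in submerged adult shoots, against 7.65 and 7.69 in dark adult shoots, and the change was -3.18 (standard error 0.16, adjusted p 2.62e-05), a 9.06-fold fall. In juvenile plants it had 5.48 and 5.08 in submerged shoots, against 8.05 and 7.83 in dark shoots. That change was -2.66 (standard error 0.16, adjusted p 3.95e-05), a 6.32-fold fall. The 95% intervals of ABI1 and ABI2 were far apart at each age: -0.81 to -0.17 for ABI1 and -3.55 to -2.80 for ABI2 in adult shoots, and -1.10 to -0.46 for ABI1 and -3.03 to -2.28 for ABI2 in juvenile shoots. The difference between these genes was not tested, and each is read by its own probes.

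HAB1 and HAB2 are a pair of close homologues, and loss of HAB1 makes plants hypersensitive to ABA. HAB1 had 6.17 and 6.71 in submerged adult shoots, against 7.77 and 7.98 in dark adult shoots. It had 6.75 and 6.39 in submerged juvenile shoots, against 7.99 and 7.96 in dark juvenile shoots. Submerged and control arrays did not overlap, although the 2 submerged adult arrays lay 0.54 apart. The HAB1 change was -1.44 in adult shoots and -1.40 in juvenile shoots (standard error 0.21 each, adjusted p 0.00190 and 0.00204). HAB2 had 7.79 and 7.70 in submerged adult shoots, against 9.17 and 8.93 in dark adult shoots. It had 7.89 and 7.78 in submerged juvenile shoots, against 9.14 and 9.13 in dark juvenile shoots. HAB2 fell almost equally at the 2 ages, with changes of -1.31 in adult shoots and -1.30 in juvenile shoots (standard error 0.13 each, adjusted p 0.000317 and 0.000301).

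AHG3, a phosphatase with roles in germination and in stomatal closure, had the largest fall of the family. It had 5.87 and 5.59 in submerged adult shoots, against 9.97 and 10.11 in dark adult shoots. It had 5.73 and 5.60 in submerged juvenile shoots, against 10.01 and 9.94 in dark juvenile shoots. The distance between treatments was many times the 0.28 that separated the most distant pair of arrays within a group. The change was -4.31 at both ages (standard error 0.14 each), with adjusted p of 5.41e-06 in adult and 5.03e-06 in juvenile shoots. Among 27826 loci it was the 21st largest fall in adult shoots and the 25th largest in juvenile shoots.

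HAI1, HAI2 and HAI3 are named as highly ABA-induced PP2C genes, and HAI1 is also known as the senescence-associated gene SAG113. HAI1 had 4.53 and 4.49 in submerged adult shoots, against 7.29 and 7.08 in dark adult shoots. It had 3.96 and 4.44 in submerged juvenile shoots, against 7.10 and 7.19 in dark juvenile shoots. Both submerged arrays were below both controls at each age, as for the other called members. HAI1 fell by 2.67 in adult shoots (standard error 0.18, adjusted p 6.35e-05), a 6.38-fold fall, and by 2.94 in juvenile shoots (standard error 0.18, adjusted p 3.95e-05), a 7.69-fold fall.

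HAI2 encodes a phosphatase also known as AKT1-interacting protein phosphatase 1. It had 4.26 and 3.79 in submerged adult shoots, against 4.95 and 4.97 in dark adult shoots. It had 3.77 and 3.94 in submerged juvenile shoots, against 5.30 and 4.70 in dark juvenile shoots. The arrays did not overlap between treatments, yet the 2 dark juvenile arrays differed by 0.60. The change was -0.93 in adult shoots (standard error 0.23, adjusted p 0.0194) and -1.15 in juvenile shoots (standard error 0.23, adjusted p 0.00797). The adult call was lost without submerged adult replicate 2 (a change of -0.70, adjusted p 0.0984) and without dark adult replicate 1 or 2 (0.0770 and 0.0829). Over 14 alternatives the adult adjusted p ran between 0.0119 and 0.0984, and the juvenile call held in all 14.

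The remaining members gave dim signals in every group. HAI3 had 2.94 and 3.24 in submerged adult shoots, against 3.02 and 3.31 in dark adult shoots, and 3.36 and 2.63 in submerged juvenile shoots, against 2.895 and 3.38 in dark juvenile shoots. Its arrays overlapped between treatments at both ages. The change was -0.07 in adult shoots (95% interval -0.73 to 0.59, adjusted p 0.875) and -0.14 in juvenile shoots (95% interval -0.80 to 0.52, adjusted p 0.752). AHG1, known mainly from seeds, where it restrains ABA signalling during germination, differs from its relatives in being insensitive to inhibition by the receptors. It had 3.70 and 4.42 in submerged adult shoots, against 3.10 and 3.48 in dark adult shoots. It had 3.37 and 3.87 in submerged juvenile shoots, against 3.08 and 3.54 in dark juvenile shoots. It was the single member with positive changes: 0.77 in adult shoots (95% interval 0.06 to 1.48, adjusted p 0.0936), where the submerged arrays were both above the controls, as in 30.6% of all loci, and 0.31 in juvenile shoots (95% interval -0.40 to 1.02, adjusted p 0.492), where submerged and control arrays overlapped. Without submerged adult replicate 1 the adult change was 1.13 and was called (adjusted p 0.0406), and without submerged adult replicate 2 it was 0.41 (adjusted p 0.384). Over 14 alternatives the adjusted p ran between 0.00740 and 0.384. At signals this low, changes may be compressed, and intervals of this width do not show that the genes kept their level.

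**Figure D2:**
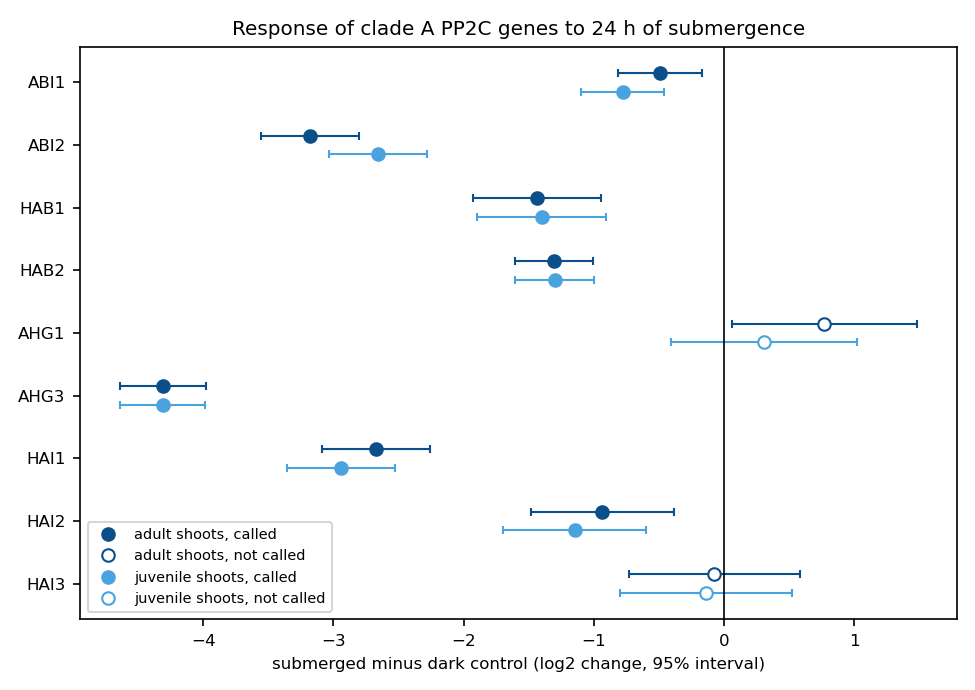
Change of each clade A PP2C gene under submergence (horizontal axis, log2, submerged minus dark control) with its 95% interval from limma, in adult shoots (dark blue) and juvenile shoots (light blue). Filled points are called genes; AHG3 lies at -4.31 at both ages, ABI2 and HAI1 between -3.18 and -2.66, the other called genes between -1.44 and -0.49, and the open points of AHG1 and HAI3 near or above 0.

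Ordered by the size of the fall, the called genes formed steps that held at each age. The interval of AHG3 (-4.64 to -3.98 in both adult and juvenile shoots) did not meet that of the next gene, which was ABI2 in adult shoots and HAI1 in juvenile shoots. The intervals of ABI2 and HAI1 overlapped each other and did not meet that of HAB1, the next in the order, which was -1.93 to -0.94 in adult shoots and -1.90 to -0.91 in juvenile shoots. HAB1, HAB2, HAI2 and ABI1 followed in that order at both ages, and each overlapped its neighbour. The steps did not follow the branches of the family: each branch held a gene with a change of -2.66 or beyond at both ages (ABI2; AHG3 and HAI1) and a gene with a change of -1.15 or nearer to 0 (ABI1; HAI2). The difference between genes was not tested, since each is read by its own probes and dim signals may compress a change. HAI2 in particular had only 4.70 to 5.30 in dark controls and 3.77 to 4.26 under water, so its place in the order may reflect a dim signal.

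The age comparisons asked whether the family differed between adult and juvenile shoots in either treatment. In submerged shoots 0 of 9 members were called for age by limma, beside 0.126% of all loci. An unadjusted limma p under 0.05 was found for 2 members, beside 11.8% of all loci. ABI2 was lower in adult plants, with 4.51 and 4.47 in submerged adult shoots and 5.48 and 5.08 in submerged juvenile shoots. The arrays did not overlap, and the difference was -0.79 (standard error 0.16, 95% interval -1.17 to -0.42), with an unadjusted p of 0.00159 and an adjusted p of 0.135. ABI1 went the other way: its adult arrays were both above the juvenile ones, by 0.35 on average (95% interval 0.03 to 0.67, unadjusted p 0.0360, adjusted p 0.385). Neither reached the threshold, with adjusted p between 0.0697 and 0.442 for ABI2 over its 15 alternatives and between 0.234 and 0.636 for ABI1. HAI1 arrays were also separated, 0.31 higher in adult shoots (adjusted p 0.560), and the arrays of the other 6 members overlapped. Separation of this kind, with adult arrays above, was seen in 20.7% of all loci, and with adult arrays below in 18.3%.

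In dark controls 0 of 9 members were called for age, beside 0.0539% of all loci. An unadjusted limma p under 0.05 was found for 0 members, beside 10.1% of all loci. The differences ran between -0.27 for ABI2 and 0.06 for ABI1. ABI2 was the single member whose dark arrays were separated by age, with 7.65 and 7.69 in adult shoots and 8.05 and 7.83 in juvenile shoots (adjusted p 0.645); adult arrays were separated below juvenile ones in 22.3% of all loci. The intervals of all members lay between -0.73 and 0.70, so a difference of 2-fold or more was outside every one of them.

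**Figure D3:**
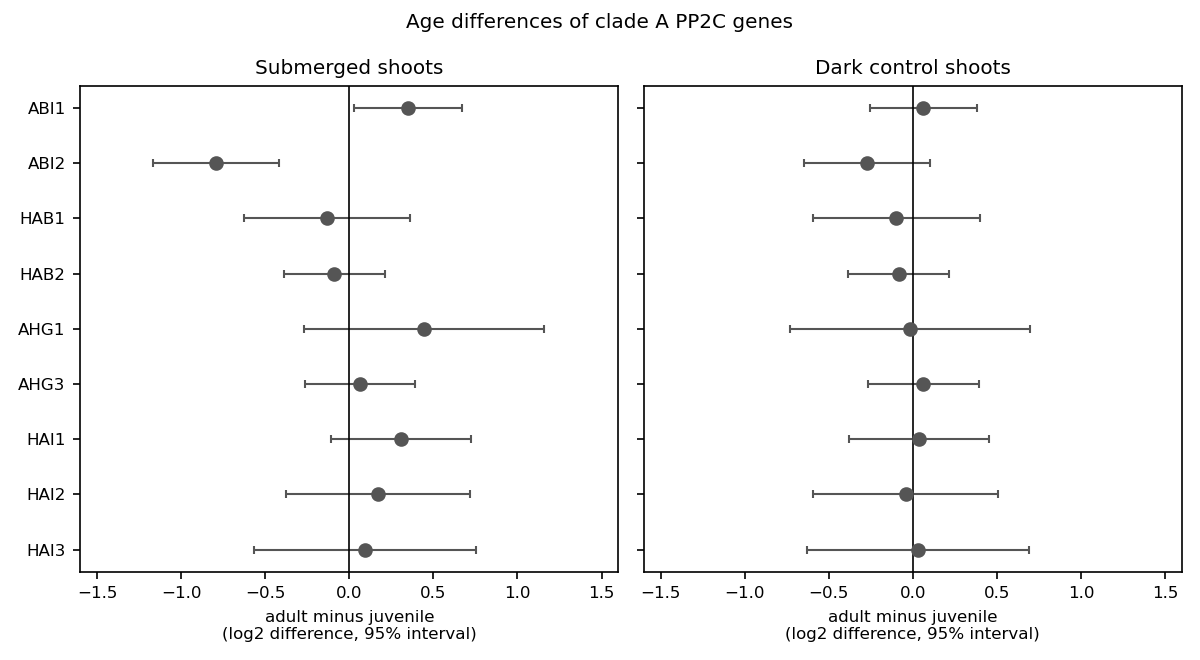
Adult minus juvenile difference (horizontal axis, log2) of each clade A PP2C gene with its 95% interval from limma, in submerged shoots (left) and dark control shoots (right). In submerged shoots the interval of ABI2 lies below 0 and that of ABI1 above 0, and neither passes adjustment over all loci; in dark controls all intervals include 0.

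The interaction, in which the juvenile response is subtracted from the adult one, was called for 0 of 9 members by limma and for 0% of all loci. No member had an unadjusted limma p under 0.05, beside 7.3% of all loci. The value was -0.52 for ABI2 (95% interval -1.05 to 0.01, adjusted p 0.694), 0.29 for ABI1 (-0.17 to 0.74), 0.27 for HAI1 (-0.32 to 0.86) and 0.21 for HAI2 (-0.56 to 0.99). For AHG3 it was 0.00 (95% interval -0.46 to 0.46) and for HAB2 also 0.00 (-0.43 to 0.42), while HAB1 had -0.03 (-0.73 to 0.67). AHG1 and HAI3 had wider intervals, -0.55 to 1.47 and -0.87 to 1.00. The intervals of ABI2 and AHG1 reached past a 2-fold difference between the responses, and those of the other 7 members did not.

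Along the rest of the pathway, the called receptor genes moved opposite to the called phosphatase genes. Of 14 PYR/PYL receptor genes, 6 rose and 0 fell in adult shoots, and 5 rose and 0 fell in juvenile shoots, where 14.6% and 15.5% of all loci rose. PYL4, PYL5 and PYL6, monomeric receptors of the hormone, rose by 2.82, 3.19 and 2.69 in adult shoots and by 2.98, 2.95 and 2.59 in juvenile shoots. PYR1 and PYL2 rose by 0.90 and 1.07 in adult shoots and by 0.96 and 1.31 in juvenile shoots. PYL12 was the sixth riser in adult shoots, at 0.54 (adjusted p 0.0139), with -0.27 in juvenile shoots (adjusted p 0.143). Its signal was dim, between 2.56 and 3.28 on all arrays, below the lower quartile of every array (3.43 to 3.56). The median change over the 14 receptors was 0.30 in adult shoots and 0.09 in juvenile shoots, with 8 and 9 of the 14 not called.

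The SnRK2 kinase family, which includes the kinases that the phosphatases keep inactive, was split. Of 10 genes, 2 rose and 3 fell in adult shoots, and 2 rose and 4 fell in juvenile shoots. Beside them, 14.6% of all loci rose and 18.9% fell in adult shoots, and 15.5% rose and 18.8% fell in juvenile shoots. OST1 (SNRK2.6), the kinase of stomatal closure, rose by 2.05 in adult and 2.16 in juvenile shoots, and SNRK2.5 rose by 1.83 and 1.72. SNRK2.3, which with SNRK2.2 and OST1 makes up the ABA-activated group, changed by -0.98 in adult and -0.97 in juvenile shoots, a fall at both ages. SNRK2.8 also fell (-2.01 and -2.56), as did SNRK2.10 (-0.48 and -0.61). SNRK2.4 fell in juvenile shoots (-0.54), with -0.38 in adult shoots (adjusted p 0.0719). SNRK2.2 was not called, at 0.18 in adult and -0.02 in juvenile shoots.

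Transcription factors of the pathway carry the signal from the kinases to ABA-responsive promoters. Of 9 such genes, 1 rose and 3 fell in adult shoots, and 0 rose and 3 fell in juvenile shoots. Among all loci 14.6% rose and 18.9% fell in adult shoots, and 15.5% rose and 18.8% fell in juvenile shoots. The 3 that fell were the bZIP factors ABF1, ABF2 and ABF3, with changes of -0.46, -0.84 and -0.65 in adult shoots and of -0.62, -0.88 and -0.90 in juvenile shoots. ABI4 rose by 0.63 in adult shoots (adjusted p 0.0292), with a dim signal between 2.98 and 3.68 on all arrays.

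Of 12 genes commonly used as readouts of ABA, 10 fell in adult shoots and 9 in juvenile shoots, and 0 rose at either age. The share of all loci that fell was 18.9% in adult and 18.8% in juvenile shoots. This list, like the others, was chosen with earlier results of these data known, so its count is a description. The dehydrin gene RAB18 had changes of -5.39 in adult and -5.23 in juvenile shoots, RD29A of -4.13 and -3.56, and RD29B of -2.42 and -3.02. The homeobox gene HB7 fell by 1.92 at both ages, and its relative HB12 fell as well (-1.05 in adult and -1.79 in juvenile shoots). RD26, a NAC transcription factor gene, fell (-1.02 and -1.23), as did RD20 (-0.91 and -1.08). AFP1, which encodes a binding protein of ABI5, and its relative AFP3 fell too (-2.25 and -2.79 for AFP1, -1.67 and -2.13 for AFP3). MAPKKK18 fell in adult shoots (-1.65), with -0.59 in juvenile shoots (adjusted p 0.184). EM1 and EM6, late embryogenesis genes of seeds, were not called. EM6 had positive changes, 0.80 in adult shoots (adjusted p 0.0829) and 0.89 in juvenile shoots (adjusted p 0.0603), and EM1 had -0.02 in adult shoots and 0.00 in juvenile shoots. The median change of the 12 genes was -1.66 in adult and -1.86 in juvenile shoots.

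Of 9 ABA synthesis genes, 1 rose and 2 fell in adult shoots, and 2 rose and 2 fell in juvenile shoots. These counts are near the shares of all loci, of which 14.6% rose and 18.9% fell in adult shoots. In juvenile shoots 15.5% of all loci rose and 18.8% fell. NCED3, the main stress-induced dioxygenase of the pathway, fell at both ages (-2.48 in adult and -2.16 in juvenile shoots), as did ABA1 (-0.60 and -0.61). ABA2 rose by 0.52 in adult and 0.62 in juvenile shoots, and ABA3 by 0.55 in juvenile shoots, with 0.12 in adult shoots (adjusted p 0.595). The ABA hydroxylase genes CYP707A1 and CYP707A3, which start ABA breakdown, rose by 1.83 and 1.89 in adult shoots and by 1.84 and 2.48 in juvenile shoots, while CYP707A2 (-0.84 and -1.11) and CYP707A4 (-0.69 and -0.91) fell at both ages. The fallers were dim on submerged arrays, with 3.33 to 3.54 for CYP707A2 and 2.95 to 3.44 for CYP707A4. RGLG1, PUB12 and PUB13, ubiquitin ligases that target clade A phosphatases for degradation, were not called at either age, with changes between -0.19 and 0.46. For age, 0 of these 61 pathway genes were called by limma in either treatment, and 0 were called for the interaction. An unadjusted limma p under 0.05 was found for 8 of the 61 in each treatment and for 6 in the interaction. Over all loci that share was 11.8% in submerged shoots, 10.1% in dark controls and 7.3% for the interaction.

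**Figure D4:**
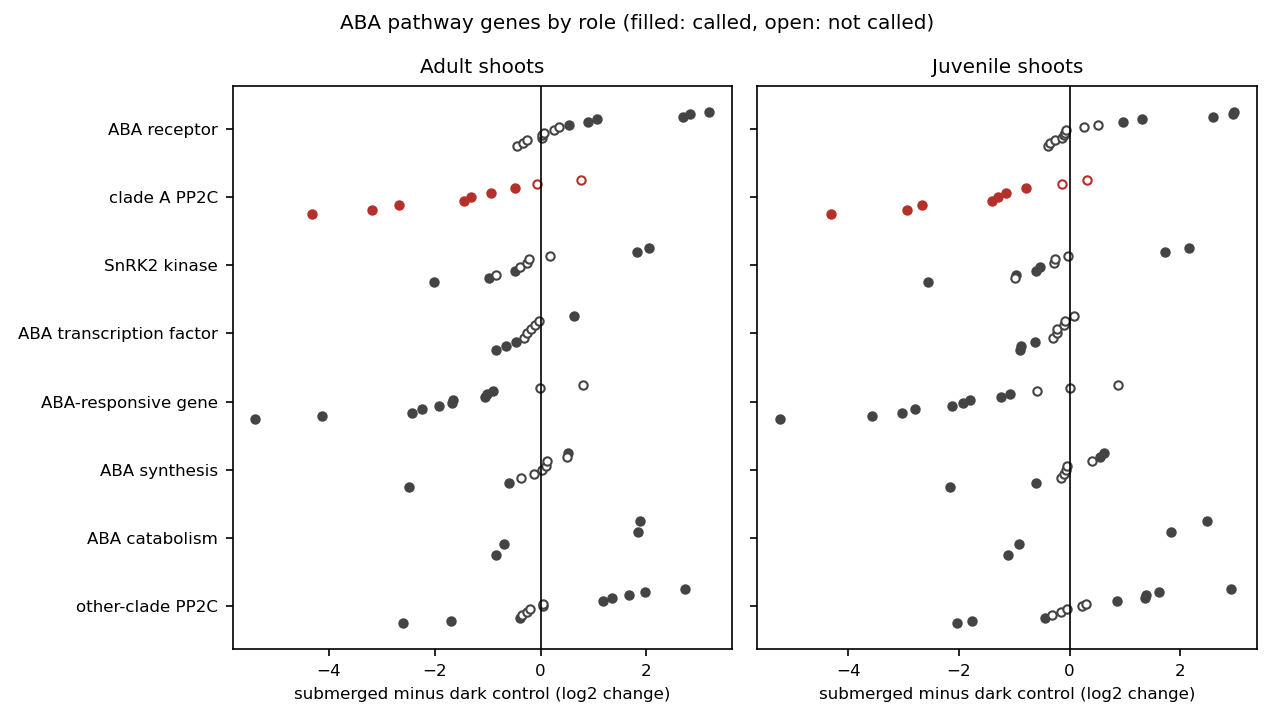
Change under submergence (horizontal axis, log2, submerged minus dark control) of each gene of the ABA pathway by role, in adult shoots (left) and juvenile shoots (right), with 1 point per gene and filled points for called genes. Called clade A PP2C genes (red) are all below 0, called receptor genes all above 0, and the other PP2C genes in the bottom row lie on both sides.

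PP2C genes outside clade A did not share a direction. Of 13 such genes, listed from general knowledge of the family, 5 rose and 3 fell at each age. Their median changes were 0.04 in adult and 0.23 in juvenile shoots. Among all loci 14.6% rose and 18.9% fell in adult shoots, and 15.5% rose and 18.8% fell in juvenile shoots. AP2C1 rose by 1.67 in adult and 1.36 in juvenile shoots, PP2C5 by 1.98 and 1.62, and AT1G07160 by 2.72 and 2.92. AT3G17090 fell in adult shoots (-0.39) and AT3G51370 in juvenile shoots (-0.45). Among genes that the RefSeq table places in PP2C clade D, APD5 rose by 1.17 and 1.38 and APD8 by 1.35 and 0.86, while APD7 fell (-2.59 and -2.03), as did APD9 (-1.68 and -1.77). APD6 was not called (-0.20 in adult and -0.16 in juvenile shoots). The difference between clade A and these genes was not tested.

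Several clade A genes act in guard cells, and some but not all guard cell markers fell. Of 5 such markers, 3 fell at each age: KAT1 (-1.49 in adult and -1.41 in juvenile shoots), SLAC1 (-1.57 and -1.50) and FAMA (-0.76 and -0.94). MYB60 (0.13 in adult and -0.43 in juvenile shoots) and HT1 (-0.30 and 0.32) were not called. The mean of the 5 markers was 5.91 to 6.11 on submerged adult arrays and 6.77 to 6.85 on dark adult arrays, and 5.88 to 6.21 on submerged juvenile arrays and 6.80 to 6.88 on dark juvenile arrays. The epidermis markers ATML1 and PDF1 averaged 6.80 to 7.38 on submerged adult arrays and 8.33 to 8.39 on dark adult arrays. They averaged 7.60 to 7.84 on submerged juvenile arrays and 8.76 to 8.79 on dark juvenile arrays. Of 2 epidermis markers, 2 fell in adult shoots and 1 in juvenile shoots. Of the 4 mesophyll markers, 2 fell at each age. Beside these marker counts, 18.9% of all loci fell in adult shoots and 18.8% in juvenile shoots. The phloem markers SUC2 and APL averaged 9.58 to 9.70 on submerged adult arrays and 9.43 to 9.49 on dark adult arrays. On juvenile arrays they averaged 9.74 to 9.75 when submerged and 9.52 to 9.55 in dark controls. These averages join opposite directions. APL rose by 0.65 in adult and 0.85 in juvenile shoots. SUC2 fell in juvenile shoots (-0.43), with -0.30 in adult shoots (adjusted p 0.111). The part of these cell types in the falls of the phosphatases was not tested. In whole shoots, fewer cells of a type and less RNA per cell cannot be told apart.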

How the data were processed

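RNA from shoots was measured on 8 arrays, 2 in each of 4 groups taken from the source field of the labels. The deposited values are on the log2 scale, judged from their range (1.86 to 13.05), and were made by the authors. RMA and limma are named, without settings or role, per the submitters' processing notes. The array model, the genome build and the assignment of probes to loci are not given in the sources used here. Array medians lay between 6.13 and 6.30. Control probes, background and probe-level signals were not used here, so near-identical genes could share signal and a dim gene could not be called undetected.

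With 1 mean for each group, a linear model was fitted over 27826 loci and 8 arrays with limma 3.58.1 in R 4.3.3 (lmFit, eBayes, default prior), and 5 contrasts were tested two-sided. P-values were adjusted by Benjamini-Hochberg over all loci. Intervals are 95% intervals of the moderated fit with 4 residual and 2.99 prior degrees of freedom. All adjusted p-values come from limma, and with 2 arrays in each of 2 groups the smallest p of an exact permutation test would be 0.333. The number of arrays limits the precision, and no batch is given. The script was tested on simulated data. Figures were drawn with matplotlib 3.10.9.

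Names came from a RefSeq gene table (TAIR10.1), which held 27241 of the loci. The named genes were all 9 members, the called genes of the pathway lists (with counts for each list and marker list) and the 3 genes nearest to each called member by root mean square distance over the 8 arrays. The members and lists were chosen with earlier results of these data known. Alternatives were centring on array medians, quantile normalization, an intensity trend with robust prior, removal of the dimmest 50% of loci, a replicate block, a threshold of 0.01, a fit of only the 4 arrays compared, and omission of each array.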

Additional observations from a re-analysis of the deposited data

How the results depend on the processing

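The counts of called members (7 at each age under submergence, and 0 for age and interaction) lay between 5 and 8 in adult shoots and between 5 and 7 in juvenile shoots over all alternatives, and at 0 throughout for age and interaction. No called change of a member reversed. Removal of the dimmest 50% of loci removed AHG1, HAI1, HAI2 and HAI3, and the other 5 members were called at each age. Among single members, calls changed for ABI1, HAI2 and AHG1 in adult shoots only. At a threshold of 0.01 the adult changes of ABI1 (adjusted p 0.0293) and HAI2 (0.0194) were not called. Centring shifts each gene by the difference of array medians, which is 0.13 for the juvenile response, -0.11 for age in submerged shoots and -0.17 for the interaction.

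Counts over all loci moved more. At 0.01 they were 5927 in adult and 6105 in juvenile shoots, against 9346 and 9525 at 0.05, and 0 for both age comparisons. For age in dark controls the main count of 15 became 149 with the intensity trend, 59 without dim loci, 8 with the replicate block, 0 with only the 4 arrays, and 0 to 2 with 1 array left out. For age in submerged shoots 35 became 22 after centring, 264 with the intensity trend, 4 with the replicate block, 0 with only the 4 arrays, and 0 to 96 with 1 array left out. The interaction count of 0 became 28 with the intensity trend and 0 to 23 with 1 array left out. The share of calls that rose in juvenile shoots was 34.3% after centring, against 45.2%, and the share higher with age in dark controls 53.3%, against 73.3%. The cause of these moves was not tested.

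Samples share replicate numbers, but the labels tie them to nothing, and deviations of same-numbered arrays had correlations between -0.11 and 0.05. With the replicate block 1 call among the members changed: AHG1 was called as higher in submerged adult shoots (0.77, adjusted p 0.00740), within a range of 0.00740 to 0.384 over its alternatives.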

Other observations

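For each called member, the loci whose profile over the 8 arrays lay nearest, after centring each on its own mean, are given as a description with no test. The 8 arrays form 2 sets by treatment, and that division is part of every such likeness. The nearest to AHG3 were AT4G27590 (root mean square distance 0.19 on the log2 scale), AT4G06534 (0.21) and the expansin gene EXPA16 (0.24). HAI1 was nearest to AT1G72180, named CEPR2 in the RefSeq table (0.10), AT4G16155 (0.11) and the homeobox gene KNAT4 (0.13). ABI2 was nearest to RbcX1 (AT4G04330, 0.16), a homologue of a cyanobacterial Rubisco assembly factor, and then to AT5G08350 and AT1G67195 (0.23 each). HAB1 was nearest to the carbonic anhydrase gene CA1 (0.09), AT5G03050 (0.09) and AT5G12900 (0.11). HAB2 was nearest to AT2G32840 (0.09), the replication origin gene ORC5 (0.09) and AT1G33470 (0.09). ABI1 was nearest to AT5G27950 (0.06), AT2G29620 (0.07, a dim locus with a mean of 3.39) and AT3G15290 (0.07). HAI2 was nearest to AT5G42420, named URGT3 in the table (0.11), the acyl-CoA synthetase gene LACS9 (0.13) and AT4G29420 (0.13). Of these 21 loci, 0 belong to the ABA pathway lists, which hold only 61 of the 27826 loci. Loci with a Pearson correlation over 0.95 to a member numbered between 318 for HAI2 and 2137 for AHG3. The 3 nearest are thus few among many close profiles, and the count of 0 says nothing about whether members moved with their pathway.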
